A study of Mus musculus with 4 samples.

Results

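Macrophages of the injured mouse kidney that carried RNA of Arg1 or Gpnmb were described across 4 single-cell RNA libraries. A barcode counted as a macrophage when it held at least 5 unique molecular identifiers (UMIs, each standing for 1 captured RNA molecule) of the complement genes C1qa, C1qb and C1qc together. A member held in addition at least 3 UMIs of Arg1 and Gpnmb together, fewer than 3 UMIs of the proliferation genes Mki67 and Top2a, and no UMI of the T cell genes Cd3d, Cd3e and Cd3g. The rule found 1057 members among 37839 kept barcodes, 7222 of which were macrophages by the C1q rule. The comparison cells were the 5078 macrophages that met the same limits on Mki67, Top2a and the Cd3 genes and had no UMI of Arg1 or Gpnmb. Of the members, 1027 came from the libraries taken on day 5, so the gene comparisons were made there.

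Kidneys of C57BL/6 males were sampled following ischemia-reperfusion (I/R), in which renal blood flow is interrupted and then restored. The sampling days were 5 (IR_d5), 14 (IR_d14) and 28 (IR_d28), and another library of day 5 (IR_Lac.z_d5) came from mice that had received L. casei Zhang (Lac.z), a probiotic Lactobacillus strain, by gavage at 1e9 colony-forming units per day for 4 weeks before the injury. All mice had the injury, and no uninjured kidney was analysed here. Each group was 1 library, so the differences have no replicate check, no p-value is given, and every interval covers counting error only. The labels do not say how many animals a library held or what the mice without Lac.z received.

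Arg1 encodes arginase 1, which converts arginine to ornithine and urea, and Gpnmb encodes a transmembrane glycoprotein of lysosome-rich macrophages. Trem2, a receptor for lipids and cell debris, and Fabp5, a fatty acid-binding protein, are known from macrophages that take up dying cells and lipid-rich debris. After kidney I/R, monocytes enter the tissue and become macrophages, and cells with such genes are often named repair macrophages; repair itself was not measured in these data. In the mm10 build the gene Arg1 lies on chr10:24915221-24927484 on the minus strand and Gpnmb on chr6:49036546-49070929 on the plus strand.

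The libraries held 76678882 to 104454319 UMIs in 8168 to 15583 barcodes, and 7043 to 14138 barcodes per library passed the limits of 200 genes or more and 50% mitochondrial UMIs or less. The macrophages by the C1q rule made up 57.2% (IR_d5), 23.9% (IR_Lac.z_d5), 9.51% (IR_d14) and 4.12% (IR_d28) of kept barcodes. The share was 2.40-fold lower in the Lac.z library than in the day 5 library without Lac.z (2.26 to 2.54). Pairs of libraries shared 9 to 32 barcode sequences, and no shared sequence belonged to a member in both libraries of a pair.

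The members were deep cells. In the day 5 library the median member had 18837 UMIs and 3635 genes, against 9466 UMIs and 2438 genes in comparison cells, and in the Lac.z library the medians were 19184.5 and 3721.5 against 9773.5 and 2582.5. A deeper cell passes a rule on raw UMIs more easily, so values are also given after barcodes were thinned to 5000 UMIs. Barcodes with fewer UMIs were left out of the thinned values, 1975 of 7086 kept ones in IR_d5 and 6883 of 14138 in IR_d28. In IR_d5 these included 17 members and 588 comparison cells, and in IR_Lac.z_d5 3 and 133. The thinned values thus describe the deeper barcodes only. The median mitochondrial share was 3.80% in members and 4.10% in comparison cells at day 5, and 3.35% and 3.03% with Lac.z. Members had a median of 228 C1q UMIs at day 5 and 256 with Lac.z, far from the limit of 5 in the rule. The 11 macrophage markers outside the rule (among them Csf1r, Adgre1, Cd68, Apoe and Lyz2) were all detected, at a summed 67030.3 CPM in members and 45520.2 CPM in comparison cells at day 5, and at 59895 and 35109 CPM with Lac.z. CPM stands for UMIs per 1000000 UMIs summed over the cells of a set. Single markers did not all follow the sum. At day 5, 2 of the 11 were higher in members by 1.5-fold and 1 lower, and with Lac.z 3 were higher and 2 lower. The median log2 ratios were 0.15 and 0.48. Aif1 had the lowest ratio, 2.24-fold lower in members at day 5 and 2.14-fold with Lac.z.

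Most of the Arg1 and Gpnmb RNA of the day 5 libraries lay in these cells, which the rule chose by those UMIs. Members held 82.3% of the 13960 Arg1 UMIs and 86.2% of the 9835 Gpnmb UMIs in kept barcodes of the day 5 library, and 84.3% of 3372 and 87.5% of 4715 in the Lac.z library. At day 14 the totals were 321 Arg1 and 176 Gpnmb UMIs, with 61.7% and 42.6% in members, and at day 28 they were 52 and 18. Both genes were thus read out mainly from members at day 5, and from few molecules later. The median member held 6 Arg1 UMIs (highest 168) and 3 Gpnmb UMIs (highest 333) at day 5, and 3 (highest 189) and 6 (highest 322) with Lac.z.

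Of the given markers that the rule did not count, Trem2 was found in nearly all day 5 members and Fabp5 in most. Trem2 had a UMI in 99.7% of day 5 members, 78.7% of comparison cells and 2.09% of T cells, which should lack it and had a median of 5041.5 UMIs. After thinning, the shares were 96.4%, 80.1% and 2.29%. Fabp5 had a UMI in 84.6% of members, 28.0% of comparison cells and 13.02% of T cells, and in 74.5%, 17.5% and 11.5% after thinning. Fabp5 in comparison cells was thus closer to T cells than to members. In the Lac.z library the share of cells with Trem2 was 99.2% in members, 66.8% in comparison cells and 1.45% in T cells, and with Fabp5 it was 87.4%, 15.5% and 8.36%, or 76.5%, 8.90% and 9.09% after thinning. The T cells, taken as barcodes with at least 3 Cd3 UMIs and under 5 C1q UMIs, had an Arg1 UMI in 3 of 430 cells and a Gpnmb UMI in 7 of 430 at day 5.

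Among eligible macrophages, those within the limits on Mki67, Top2a and the Cd3 genes, the members were most frequent at day 5 and rare at days 14 and 28. They were 773 of 3717 eligible macrophages in IR_d5 (20.8%, exact Clopper-Pearson 95% interval 19.5 to 22.1), 254 of 1507 in IR_Lac.z_d5 (16.9%, 15 to 18.8), 27 of 847 (3.19%, 2.11 to 4.60) at day 14 and 3 of 558 (0.538%, 0.111 to 1.56) at day 28. Relative to day 5 the share was 6.52-fold lower at day 14 (4.45 to 9.96) and 38.7-fold lower at day 28 (13.2 to 188). With Lac.z it was 1.23-fold lower (1.07 to 1.43), short of the 1.5-fold used here to call a difference. After thinning, the shares were 16.6%, 11.7%, 1.95% and 0.613% in the same order of libraries. As a share of all kept barcodes, members were 10.9% (10.2 to 11.7) at day 5 and 3.61% (3.18 to 4.07) in the Lac.z library, a 3.02-fold difference (2.62 to 3.50). For Lac.z the share of C1q macrophages as a whole was lower too, by 2.40-fold. At days 14 and 28 the kept-barcode share of members was 38.7-fold and 514-fold lower than at day 5. The share of C1q macrophages was 6.01-fold and 13.9-fold lower there. Without cells holding 10 or more UMIs of proximal tubule markers the Lac.z share of members was 0.661 of the day 5 share in place of 0.331. The same step gave 0.0513 in place of 0.0259 at day 14 and 0.00805 in place of 0.00195 at day 28. The matrix headers name software version 3.0.2 at day 5 and 3.1.0 at days 14 and 28, so version and time cannot be told apart.

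**Figure D1:**
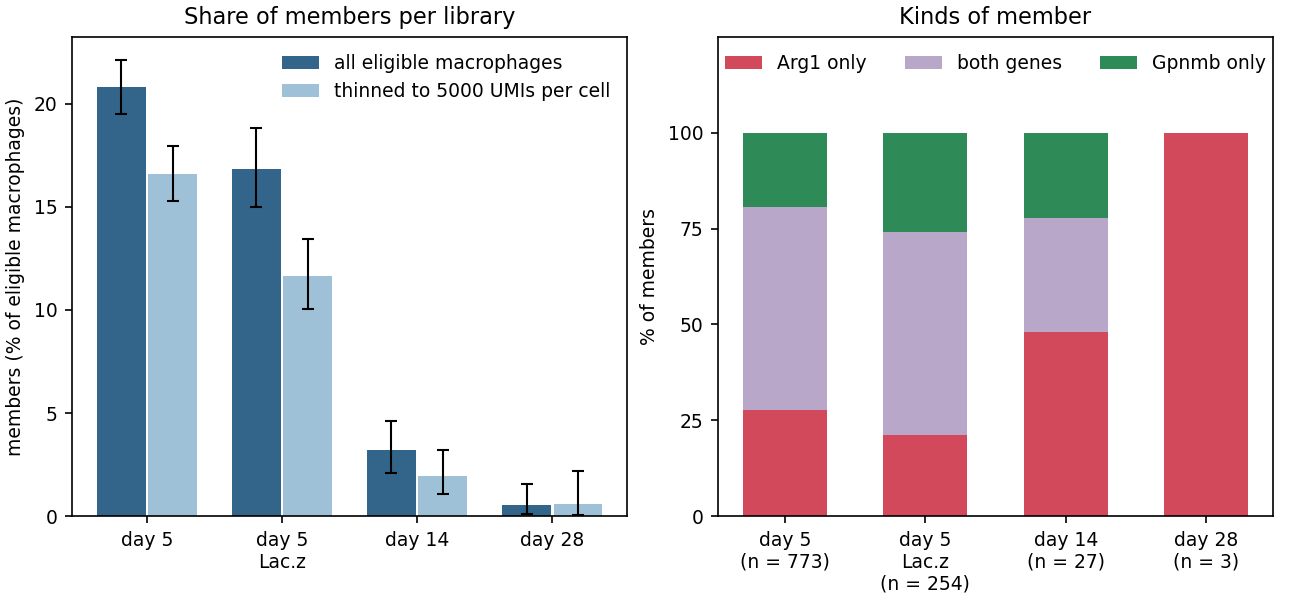
Left, members as a percent of eligible macrophages in each library, for the raw rule and after thinning to 5000 UMIs, with exact 95% intervals that cover counting error. Right, the percent of members with Arg1 UMIs alone, Gpnmb UMIs alone or both: the day 5 libraries have 20.8% and 16.9% members and the later ones 3.19% and 0.538%.

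Arg1 and Gpnmb often occurred in the same cell. Of the day 5 members, 410 (53.0%) had UMIs of both genes, 214 (27.7%) of Arg1 alone and 149 (19.3%) of Gpnmb alone. With Lac.z the numbers were 134 (52.8%), 54 (21.3%) and 66 (26.0%). Among eligible macrophages of day 5, a Gpnmb UMI was present in 52.1% of cells with an Arg1 UMI (48.6 to 55.6) and in 11.2% of cells without one (10.1 to 12.4). The same shares were 53.3% and 7.67% with Lac.z, and 23.5% (8 of 34 cells) and 1.60% (13 of 813) at day 14. In all 3 libraries Gpnmb was thus found more often beside Arg1 than without it, and deeper cells are more likely to show a UMI of each. The summed level in members was 774.7 CPM of Arg1 at day 5 (761 to 789) and 561.5 CPM with Lac.z (541 to 583). For Gpnmb it was 571.5 CPM (559 to 584) and 815.2 CPM (790.5 to 840). The rule chose the cells by these UMIs, so nothing is read from the difference. The top 10 members held 10.4% of the Arg1 and 15.6% of the Gpnmb UMIs of day 5 members, and 34.5% and 33.3% with Lac.z.

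Levels of other genes differed by degrees with the number of Arg1 and Gpnmb UMIs, on both sides of the threshold of 3. In the day 5 library the Fabp5 level was 109.9 CPM in cells with 0 such UMIs, 304 at 1, 479.8 at 2, 662 at 3, 624 at 4 or 5, 812 at 6 to 10, 1610.3 at 11 to 30 and 3242 above 30. With Lac.z it was 76.7, 402, 248, 472, 523, 920.1, 1704 and 4971 CPM for the same numbers. The Fabp5 level thus did not rise at every step, from 3 to 4 or 5 UMIs at day 5 and from 1 to 2 with Lac.z. Other genes also fell at a step with Lac.z. Trem2 went from 746 CPM at 2 UMIs to 651 at 3, and Fn1 from 127 to 79.1. Spp1 went from 3767 CPM at 3 UMIs to 1184 at 4 or 5. The 105 and 31 cells with exactly 2 UMIs, just outside the rule, and the 75 and 26 cells with exactly 3, just inside, lay between the extremes for Fabp5. Trem2 went from 501 CPM at 0 to 842 at 3 and 1073 above 30 at day 5, and from 334 to 651 and 1118 with Lac.z. Fn1, which encodes the matrix protein fibronectin, went from 56.4 to 259 and 739 CPM at day 5. Cx3cr1, the fractalkine receptor of resident macrophages, went the other way, from 628 to 359 and 124 CPM at day 5 and from 569 to 326 and 67.5 with Lac.z. The cells' depth rose along the same order, from a median of 9466 UMIs at 0 to 16118 at 3 and 23573 above 30 at day 5, and its part in these levels was not tested beyond the thinned and partly depth-matched values given below.

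**Figure D2:**
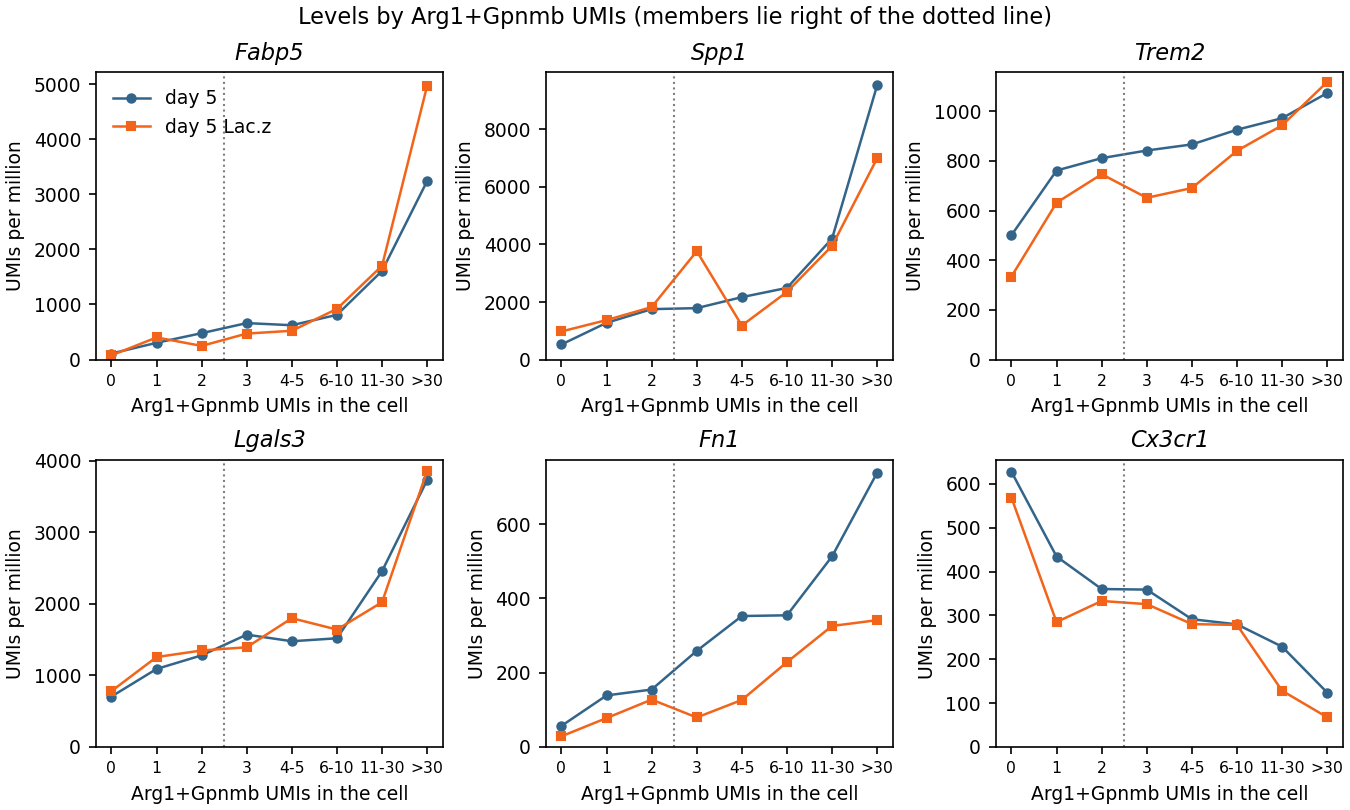
Level in CPM, on a linear axis, of 6 genes in eligible macrophages of both day 5 libraries, grouped by their Arg1 and Gpnmb UMIs from 0 to over 30. The dotted line is the member threshold of 3. Fabp5 goes from 109.9 to 3242 CPM at day 5 and Cx3cr1 from 628 to 124 CPM, with intermediate values at 2 and 3 UMIs.

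Compared with macrophages without Arg1 or Gpnmb UMIs, the members had more RNA of genes known from lipid-associated macrophages, of part of the lysosomal genes and of many genes of hypoxia and glycolysis and of growth factors. They had less RNA of genes for class II antigen presentation and of interferon-induced genes. The rule chose these cells from UMIs of the same cells, so the values are a description. Of 11062 genes with at least 50 UMIs over both sets at day 5, 5.91% were higher by at least 1.5-fold in members and 15.8% lower; with Lac.z it was 6.97% and 17.4% of 10109. Of the 9994 genes measured in both libraries, 415 were higher in both (4.15%), 1098 lower in both (11.0%) and 14 went opposite ways (0.14%). The median gene had a log2 ratio of -0.06 at day 5 and -0.10 with Lac.z.

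All 18 genes of a list for lipid-associated macrophages were higher in members at day 5, and 16 of 17 measured with Lac.z, with median log2 ratios of 1.81 and 1.70. Fabp5 was at 1839 CPM in members and 109.9 in comparison cells at day 5, a 16.7-fold difference (16.1 to 17.4), and at 2341 and 76.7 CPM with Lac.z, 30.5-fold (28.6 to 32.7). Spp1, which encodes osteopontin, was at 5273 against 525 CPM, and at 4279 against 977 with Lac.z. Members were thus far above comparison cells in both libraries for both genes. Trem2 differed less, at 976 against 501 CPM (1.95-fold, 1.90 to 2.00), and 926 against 334 with Lac.z (2.77-fold, 2.66 to 2.89). Atp6v0d2, a subunit of the proton pump that acidifies lysosomes, was at 74.4 against 4.91 CPM, and 96.6 against 5.16 with Lac.z. Syngr1, a vesicle membrane protein, was at 197 against 15.6 and 210.4 against 8.51 CPM. Lpl, the lipoprotein lipase, had the smallest ratio of the list, with log2 values of 0.62 and 0.31. Comparison cells drawn to match members on total UMIs matched them in part only, with medians of 15224 UMIs against 18837 at day 5 and 16225.5 against 19184.5 with Lac.z. Against these partly depth-matched cells the medians of the list were 1.43 and 1.38, and after thinning they were 1.92 and 1.85.

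Other lists of lipid genes were mixed. Of the genes for fatty acid uptake and storage, 8 of 18 were higher and 1 lower at day 5, and 6 of 19 and 2 with Lac.z, with medians of 0.46 and 0.31 that were 0.29 and -0.03 against partly depth-matched cells. Acsl1, which activates fatty acids, was lower at 17.7 against 48.8 CPM at day 5 and 21.9 against 59.3 with Lac.z. Of the cholesterol genes, 6 of 18 were higher and 4 lower at day 5, and 6 of 17 and 3 with Lac.z, with medians of 0.33 and 0.36. Nr1h3, the sterol-sensing liver X receptor alpha, was at 14.2 against 5.73 and 20.2 against 6.30 CPM, whereas Ch25h, which makes 25-hydroxycholesterol, was lower at 7.68 against 48.6 and 7.90 against 64.6.

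The lysosome list was higher in part. Of 32 genes, 14 were higher by 1.5-fold at day 5 and 18 with Lac.z, none was lower, and the medians were 0.51 and 0.63. Ctsd, the protease cathepsin D, was at 4615 against 1069 CPM at day 5 (4.32-fold, 4.26 to 4.38) and at 5046 against 739 with Lac.z (6.82-fold, 6.66 to 6.99). Ctsb, cathepsin B, was at 4533 against 2014 and 5299.7 against 1926 CPM. The transcription factor gene Tfec was at 43.2 against 15.4 and 44.8 against 10.3 CPM, while its relatives Tfeb, at 23.0 against 22.1 CPM at day 5, and Tfe3, at 52.6 against 60.0, stayed within 1.5-fold. Against partly depth-matched cells the medians were 0.42 and 0.52, so that the Lac.z median, too, lay under 1.5-fold.

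Other sets had smaller medians than the lipid-associated list. Of 24 genes of hypoxia and glycolysis, 17 were higher and 1 lower at day 5, and 12 and 1 with Lac.z, with medians of 0.67 and 0.64 that were 0.52 and 0.35 against partly depth-matched cells. The top gene was Vegfa, the endothelial growth factor, at 47.8 against 7.76 CPM at day 5 (6.17-fold, 5.25 to 7.28) and at 37.9 against 12.4 with Lac.z. Pgam1, a glycolytic enzyme, was at 383 against 156.5 and at 337 against 131 CPM. Of the growth factors, 9 of 16 measured were higher and 1 lower at day 5 and 11 of 15 were higher and 1 lower with Lac.z. Gdf15, a secreted stress cytokine, was at 119 against 52.8 and 135 against 28.6 CPM, Osm, oncostatin M, at 186 against 75.3 and 165 against 61.7, and Pdgfb lower, at 19.5 against 56.4 and 18.4 against 66.4. The oxidative stress list was mixed, with 7 of 17 genes higher and 2 lower at day 5 and 7 of 18 and 3 with Lac.z (medians 0.20 and 0.26). The cystine transporter gene Slc7a11 had its highest ratios, at 86.7 against 19.4 and 53.5 against 9.08 CPM. Me1, malic enzyme 1, had its lowest, at 1.95 against 5.77 and 6.52 against 11.3 CPM. Hilpda, a lipid droplet protein, was at 56.1 against 12.4 and 63.4 against 9.25 CPM. The respiratory chain list had 0 of 18 genes past 1.5-fold in both libraries. The alternative activation list was split, with 7 of 18 genes higher and 6 lower at day 5 (median 0.21). With Lac.z 7 of 15 were higher and 4 lower (median 0.50). Of efferocytosis and scavenger receptor genes, 5 of 17 were higher and 1 lower at day 5 (median 0.04). With Lac.z it was 8 of 15 and 1 (median 0.62).

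Matrix genes split by gene rather than moving together. Of 23 measured, 11 were higher and 7 lower at day 5, and 11 and 5 of 22 with Lac.z. Fn1 was at 524 against 56.4 CPM (9.28-fold, 8.76 to 9.83) and at 269 against 28.4 with Lac.z (9.48-fold, 8.42 to 10.7). Thbs1, thrombospondin 1, was at 325 against 42.2 and 379 against 47.8 CPM, Adam8, a membrane protease, at 133 against 23.1 and 137 against 14.4, and Plaur, the urokinase receptor, at 84.5 against 23.1 and 95.2 against 18.6. The lower genes included Col1a1, Col3a1 and Sparc, which fibroblasts make; 29.0% of the Col1a1 UMIs of day 5 comparison cells lay in 1 cell, and 45.3% with Lac.z. The arginine and polyamine list was mixed, with medians of 0.11 and -0.08 without Arg1. At day 5, 4 of 16 genes were higher and 2 lower, and with Lac.z 1 of 15 was higher and 3 lower. In both libraries 1 was higher and 2 lower. Slc7a2 had the highest ratio at day 5 (6.84-fold) and Arg2 with Lac.z (5.71-fold). Ckb had the lowest in both, 3.20-fold and 3.19-fold lower. Within it Arg2, the second arginase gene, was at 9.37 against 1.79 and 15.2 against 2.62 CPM, and Nos2, the inducible nitric oxide synthase that competes for arginine, was at 0.135, 0.0812, 0 and 0.246 CPM in members and comparison cells of the day 5 and the Lac.z library, on at most 3 UMIs.

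The genes with the largest ratios in both libraries came from several pathways. F7, which encodes coagulation factor VII, was at 41.1 against 0.690 CPM (59.5-fold, 36.9 to 103) and at 40.7 against 0.491 with Lac.z (82.9-fold, 37.4 to 228). It had a UMI in 19.5% of day 5 members and 0.467% of comparison cells. F10, coagulation factor X, was at 54.2 against 4.75 and 44.8 against 3.76 CPM. Il7r, a receptor subunit for interleukin 7, was at 45.6 against 4.47 and 59.7 against 3.68 CPM; the T cell genes Cd3d, Cd3e and Cd3g were at 0 by the rule, and Trac, Cd2 and Lck had 2, 3 and 2 UMIs in all day 5 members. Other members of the top 15 were Ahnak2, Mmp27, Dhrs9, Pdpn (podoplanin, a membrane glycoprotein), Mmp8 (a collagenase), Emp1 and Hp (haptoglobin, which binds haemoglobin), the last at 29.2 against 3.29 and 35.8 against 3.27 CPM. All of these stood higher in both libraries by the rule that named them.

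The class II list had the lowest median of the gene lists. At day 5, 10 of 13 were lower and 1 was higher, and with Lac.z 10 of 11 and 1, with medians of -2.25 and -1.78. H2-Ab1, a class II chain, was at 737 CPM in members against 4239 at day 5 (5.75-fold lower, 5.64 to 5.87) and at 700.2 against 4484 with Lac.z (6.40-fold lower, 6.19 to 6.63). Cd74, the invariant chain that guides class II molecules, was at 2483 against 12720.2 and 2099.9 against 12391 CPM. Ciita, the master regulator of these genes, was at 14.8 against 92.1 and 12.4 against 70.1 CPM, whereas Cd80, a costimulatory ligand, was higher at 9.16 against 3.61 and 8.10 against 3.19. In partly depth-matched cells the medians were -1.58 and -1.47. Markers of conventional dendritic cells, which also present antigen on class II, moved with this list. Of 8 measured at day 5, 6 were lower in members and 2 higher (median -1.14), and with Lac.z 3 of 4 were lower (median -3.57). Their summed level over 10 genes was 42.4 CPM in members against 55.3 at day 5, with no gene at 0, and 23.1 against 89.2 with Lac.z, where Clec9a, Cd209a and Ccr7 were at 0 in members. Flt3, a growth factor receptor of these cells, was at 0.404 against 4.51 CPM at day 5. The part of such cells in the class II values was not tested. The H2 genes have similar copies, so their single values are uncertain.

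Interferon-induced genes were lower in members within each library. Of 35 genes, 30 were lower at day 5 and 29 with Lac.z, 26 in both and none higher, with medians of -1.08 and -0.91 (-0.94 and -0.61 against partly depth-matched cells). Irf7, a transcription factor of the interferon response, was at 23.9 against 47.55 CPM at day 5 and 297 against 616 with Lac.z. Isg15, a ubiquitin-like protein, was at 32.8 against 71.8 and 217.5 against 534 CPM. The resident macrophage list had 7 of 16 genes lower at day 5 and 8 with Lac.z, with medians of -0.53 and -0.47, from Cd72 at 42.7 against 322 CPM to Folr2, a folate receptor, which was higher at 44.1 against 20.1. Of 18 immediate early and heat shock genes, which tissue dissociation can induce, 9 were lower in each library and 1 higher with Lac.z, with medians of -0.62 and -0.59 that became -0.49 and -0.34 in partly depth-matched cells. The inflammatory list was mixed: Ccl4, a chemokine, was at 606 against 1703 and 562.5 against 1813 CPM, and Ccl6, another, at 2775 against 605 and 2312 against 456.

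Summed over each set, comparison cells also carried more RNA of several other cell types per UMI. All 14 proximal tubule markers were lower in members in both libraries, at a summed 334 against 1182 CPM at day 5 and 1684 against 3271 with Lac.z. The mean per cell was 6.41 against 11.3 UMIs at day 5 and 33.6 against 34.6 with Lac.z. The median cell held 2 against 2 such UMIs at day 5 and 5 against 3 with Lac.z. These counts per cell are not set against depth. The median member had 18837 UMIs in all against 9466 in comparison cells at day 5, and 19184.5 against 9773.5 with Lac.z. Cells with 10 or more such UMIs were 4.92% of members and 12.7% of comparison cells at day 5. With Lac.z they were 12.2% and 13.1%. Among the largest lower ratios were the antibody genes Igkc and Jchain, for which 1 comparison cell held 98.7% and 99.5% of the day 5 UMIs, and Mgp, a matrix protein, at 10.4 against 146.5 and 13.04 against 181 CPM. The other lowest genes were Col1a1, Col1a2, Col6a1, Serpinf1, Zfp599, Asb2 and Adrb1, a beta-adrenergic receptor at 0.472 against 9.18 and 0.988 against 20.8 CPM. The summed B and plasma cell markers were 41.3 against 1095 CPM at day 5, and erythroid genes 6.60 against 949. The erythroid gap was much smaller with Lac.z, where the 4 measured genes had a median log2 ratio of -0.85, against -6.95 at day 5. For the B and plasma cell markers the medians were -3.85 at day 5 and -4.08 with Lac.z. The part of such RNA in the lower calls was not tested. Leaving out cells with 10 or more tubule UMIs gave medians of 1.83 and 1.93 for the lipid-associated list, -2.20 and -1.82 for class II and -1.17 and -0.97 for the interferon list.

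**Figure D3:**
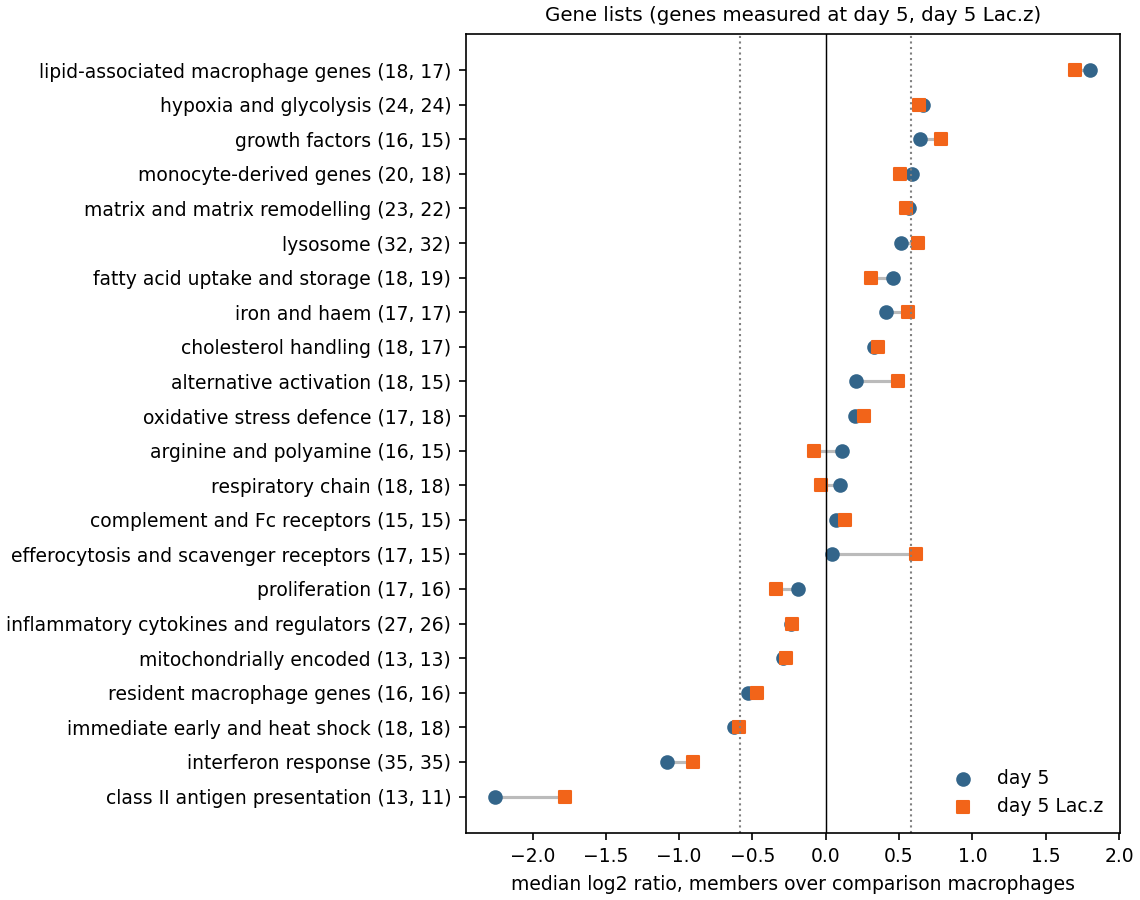
Median log2 ratio of members over comparison macrophages for each gene list in both day 5 libraries; dotted lines mark 1.5-fold. The lipid-associated list is highest at 1.81 and 1.70 and class II lowest at -2.25 and -1.78.

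Members with Arg1 alone and members with Gpnmb alone differed from each other in many genes. Arg1-only members had more RNA of the monocyte genes Ccr2 and S100a4, of Fn1 and Vegfa and of class II genes. Gpnmb-only members had more RNA of Fabp5, lysosomal and iron-handling genes and of Igf1 and Gdf15. Of 7491 genes measured at day 5, 11.0% were higher in Arg1-only and 7.9% lower, and with Lac.z 15.1% and 9.84% of 4575. Of 4547 measured in both, 295 were higher in both (6.49%), 205 lower in both (4.51%) and 11 opposite (0.242%). The medians over all genes were 0.07 and 0.08. The Lac.z sets are small, at 54 and 66 cells, and depth was alike, with medians of 16782 and 17998 UMIs at day 5 and 17448.5 and 18906.5 with Lac.z.

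Fn1 was at 953 CPM in Arg1-only, 476 in members with both genes and 80.0 in Gpnmb-only members at day 5, and at 763, 210.0 and 36.8 CPM with Lac.z. The ratio of the extremes was 11.9-fold (10.4 to 13.7) and 20.8-fold (15.4 to 28.6). Ccr2, the chemokine receptor that brings monocytes into tissue, was at 737, 238 and 83.3 CPM, and at 520.2, 144 and 53.5 with Lac.z. Members with both genes thus lay between the extremes. S100a4, a calcium-binding protein of monocytes, was at 671 against 111 and 518 against 35.2 CPM. Vegfa was at 68.6 against 7.64 and 88.8 against 10.4 CPM, and AA467197 at 594 against 37.1 and 703 against 26.4. The rule also named Spint1, a protease inhibitor, Nt5e, which makes adenosine at the cell surface, Gpr171, Ccnd2 (cyclin D2) and Hp on this side.

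On the other side, Fabp5 was at 305 CPM in Arg1-only, 2213 in members with both and 2801 in Gpnmb-only members at day 5 (9.18-fold lower in Arg1-only, 8.62 to 9.77), and at 227, 3049 and 2292 CPM with Lac.z (10.1-fold, 8.78 to 11.7). For this gene the members with both stood close to Gpnmb-only. Atp6v0d2 was at 4.79, 89.0 and 125.5 CPM at day 5, and at 1.07 (1 UMI), 129 and 92.7 with Lac.z. Igf1, an insulin-like growth factor, was at 39.6 against 236 and 8.56 against 226 CPM, and Gdf15 at 33.8 against 210.3 and 7.49 against 253. Slc40a1, the iron exporter ferroportin, was at 11.2 against 54.6 and 3.21 against 73.5 CPM; the last value of Arg1-only rests on 3 UMIs. Ccl8, a chemokine, was at 96.0 against 699 and 196 against 991 CPM. Serpinb6a, Vcam1 (an adhesion molecule), Pmp22 and Ednrb (an endothelin receptor) completed the 10 genes named here. Spp1 did not separate both kinds, at 3435 against 3817 CPM at day 5 and 2256 against 2239.9 with Lac.z, and was highest in members with both genes, at 6584 and 5824.

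**Figure D4:**
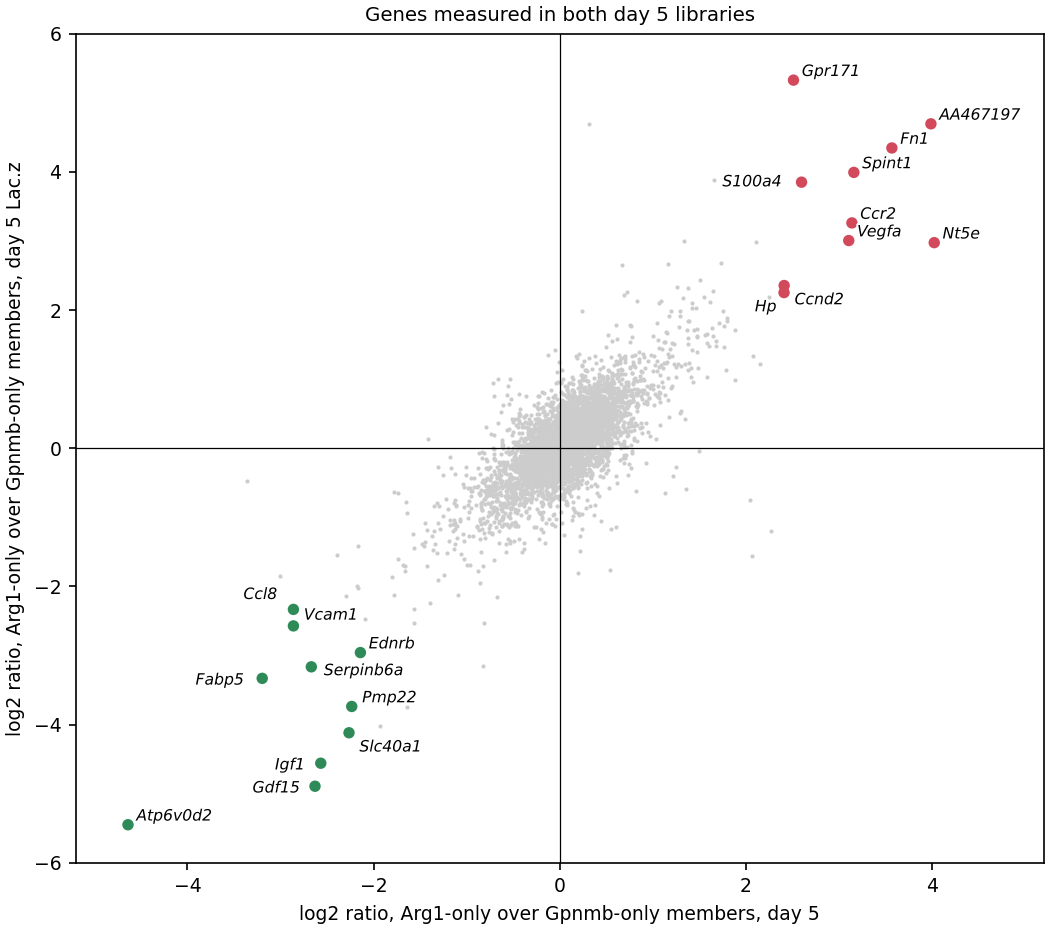
Log2 ratio of Arg1-only over Gpnmb-only members at day 5 (x axis) and at day 5 with Lac.z (y axis), 1 point per gene measured in both; the named genes are coloured. Fn1 and AA467197 lie at the upper right, at 3.57 and 4.35 and at 3.99 and 4.70, and Fabp5 and Atp6v0d2 at the lower left, at -3.20 and -3.33 and at -4.64 and -5.45.

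By list, 13 of 24 hypoxia and glycolysis genes were higher in Arg1-only members at day 5 and 15 of 21 with Lac.z (medians 0.83 and 0.90), 11 of them in both, and 1 was lower with Lac.z. Slc16a3, a lactate transporter, was at 35.4 against 10.9 CPM (3.24-fold, 2.17 to 4.99) and 81.4 against 4.79 (17.0-fold, 7.45 to 47.7). Class II genes were higher in 9 of 11 and 7 of 7 (medians 1.56 and 1.62), with H2-Ab1 at 1607 against 461 and 1649.5 against 459.5 CPM. The summed dendritic cell markers were 65.9 CPM in Arg1-only and 33.8 in Gpnmb-only members at day 5, and 38.5 and 13.6 with Lac.z. The monocyte-derived list was higher in 12 of 18 and 13 of 17 (medians 0.91 and 1.17). Lysosome genes were lower in 13 of 32 and 8 of 30 (medians -0.50 and -0.31), led by Ctsd at 1924 against 6401 and 1870.0 against 5659 CPM. Iron and haem genes were lower in 8 of 15 and 5 of 9 (medians -0.71 and -0.61). Among inflammatory genes Il1b, a cytokine, was at 822 against 172 and 1107 against 243 CPM. The interferon list gave no common direction, with medians of -0.14 and 0.01, and the lowest gene, Ifit2 at day 5, had 89.8% of its Gpnmb-only UMIs in 1 cell. The summed proximal tubule markers were 428 CPM in Arg1-only and 461 in Gpnmb-only members at day 5, and 1727 and 2664 with Lac.z.

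For the lysosome and hypoxia lists, the promoter windows of the RefSeq table (GRCm38.p6) were searched on both strands for CACGTG, the E-box form known from lysosomal genes, and for ACGTG, the core known from hypoxia-response elements, which CACGTG contains. In the 250 bases before the start, CACGTG was in 6.02% of 32851 windows and in 8 of 34 windows of the lysosome list (23.5%; 26 of 32 genes matched). ACGTG was in 16.6% of all windows and in 14 of 33 of the hypoxia list (42.4%; 24 of 26 genes). Genes higher in Gpnmb-only members in both libraries had CACGTG in 12.1% of windows and genes higher in Arg1-only members in 11.4%, beside 9.56% of those measured. The shares for ACGTG were 22.8%, 21.9% and 23.4%, so the shares of both kinds of member lay close together. The windows of Gpnmb (chr6:49036268-49036517, plus strand), with no CACGTG, of Ctsd (chr7:142387828-142388077, minus strand), with matches 245 and 98 bases before the start, and of Slc16a3 (chr11:120948817-120949066, plus strand), with ACGTG 27 and 14 bases before it, are shown because they belong to a gene of the rule, to the leading gene of the lysosome list and to the hypoxia gene with the largest ratio of Arg1-only over Gpnmb-only members with Lac.z; Vegfa led the hypoxia list in the other contrasts between kinds of macrophage. A match is a description of letters only. Each runs 5′ to 3′ with matches in capitals.
Gpnmb: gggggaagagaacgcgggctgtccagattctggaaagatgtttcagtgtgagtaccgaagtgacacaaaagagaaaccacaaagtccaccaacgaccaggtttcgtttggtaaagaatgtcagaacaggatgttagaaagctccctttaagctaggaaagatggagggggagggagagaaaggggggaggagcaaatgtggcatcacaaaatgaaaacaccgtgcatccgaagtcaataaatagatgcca
Ctsd: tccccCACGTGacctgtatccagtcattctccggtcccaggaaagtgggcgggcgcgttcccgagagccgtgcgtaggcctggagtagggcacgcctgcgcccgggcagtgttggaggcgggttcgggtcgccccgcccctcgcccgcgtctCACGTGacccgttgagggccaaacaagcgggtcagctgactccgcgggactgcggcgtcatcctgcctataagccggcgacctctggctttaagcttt
Slc16a3: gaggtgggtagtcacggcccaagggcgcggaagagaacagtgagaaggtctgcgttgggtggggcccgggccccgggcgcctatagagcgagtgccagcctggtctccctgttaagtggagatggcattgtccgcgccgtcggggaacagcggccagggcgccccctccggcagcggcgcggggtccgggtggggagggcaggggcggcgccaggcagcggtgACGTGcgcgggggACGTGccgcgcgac

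In the Lac.z library the members had much more RNA of interferon-induced genes than members without Lac.z, and also more RNA of proximal tubule genes. The comparison macrophages showed both differences too. Of 9643 genes measured in members, 7.0% were higher with Lac.z and 2.42% lower, with a median of 0.03. In comparison cells it was 12.3% and 3.29% of 11311, with a median of 0.08. With 1 library on each side, Lac.z and any other difference between these libraries cannot be told apart.

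Of 35 interferon genes, 34 were higher in members with Lac.z and 33 in comparison cells, with medians of 2.42 and 2.01. Their summed level in members was 2370.05 CPM at day 5 and 7741 with Lac.z, and in comparison cells 3989 and 14404. Irf7 went from 23.9 to 297 CPM in members (12.5-fold, 11.1 to 14.0) and from 47.55 to 616 in comparison cells (12.95-fold, 12.2 to 13.8). Ifi44 was at 1.15 and 39.1 CPM in members, Ifit3, an antiviral RNA-binding protein, at 9.03 and 150.2, and Isg15 at 32.8 and 217.5. The exception in members was Gbp2, a guanylate-binding protein, at 30.7 and 31.2 CPM. Without cells holding 10 or more tubule UMIs the median in members was 2.45, and with each gene's top cell left out it was 2.44. Members thus stayed below comparison cells of their own library and above both sets of the other library for the summed list.

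Of the 10 genes with the largest ratios, 5 were of this kind: Ifi44, Slfn4 (1.15 to 31.2 CPM), Ifit1bl1, Ifit3b and Ifi206 (4.25 to 77.5 CPM). Ly6c2, a monocyte gene, went from 2.22 to 53.3 CPM in members and from 1.503 to 114 in comparison cells. Spon1, a matrix protein, was at 0.472 and 24.1 CPM in members and 6.09 and 71.7 in comparison cells. The others, Cyp2d12, Cyp4a14 and Slc3a1, are genes of tubule cells, and 87.0% of the Cyp2d12 UMIs lay in 1 member. All 14 proximal tubule markers were higher in members with Lac.z (median 2.41) and in comparison cells (1.55), and 10 or more of their UMIs were held by 4.92% of day 5 and 12.2% of Lac.z members. Ifit3b, Cyp4a14, Cyp2d12, Ly6c1 and Ly6c2 have closely similar copies, so their values are uncertain. In the monocyte-derived list 4 genes were higher and 4 lower: Plac8 was at 11.3 and 132 CPM and Ms4a4c at 28.6 and 221, while F13a1, the coagulation factor XIII subunit, was at 298 and 132 and S100a4 at 354 and 158.

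Of the lipid-associated list 0 of 18 passed 1.5-fold (median -0.02), of the lysosome list 0 of 32 (0.15) and of class II 0 of 11 (-0.20). Trem2 was at 976 and 926 CPM, Fabp5 at 1839 and 2341 (1.27-fold, 1.25 to 1.30) and Spp1 at 5273 and 4279. Fn1 was lower with Lac.z, at 524 and 269 CPM (1.95-fold, 1.84 to 2.06), as was Hmox1, haem oxygenase 1, at 309 and 194 (1.59-fold, 1.48 to 1.70). In comparison cells Fn1 was also lower (1.99-fold, 1.77 to 2.24) and Hmox1 too (1.82-fold, 1.72 to 1.93). In the hypoxia list Ndrg1 alone was called, at 24.3 and 94.6 CPM in members and 51.5 and 180.0 in comparison cells. Among the lowest ratios, Cd163, a haemoglobin scavenger receptor, was at 8.29 and 1.38 CPM, Rasgrp3 at 11.9 and 2.96 and Mmp9, a gelatinase, at 6.87 and 1.98. Bex1 and Atp6v1g3 had 96.1% and 95.6% of their day 5 UMIs in 1 member, and Ly6c1, Syne3, Flt1, Exoc3l4 and Ccr7 made up the rest of the 10.

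**Figure D5:**
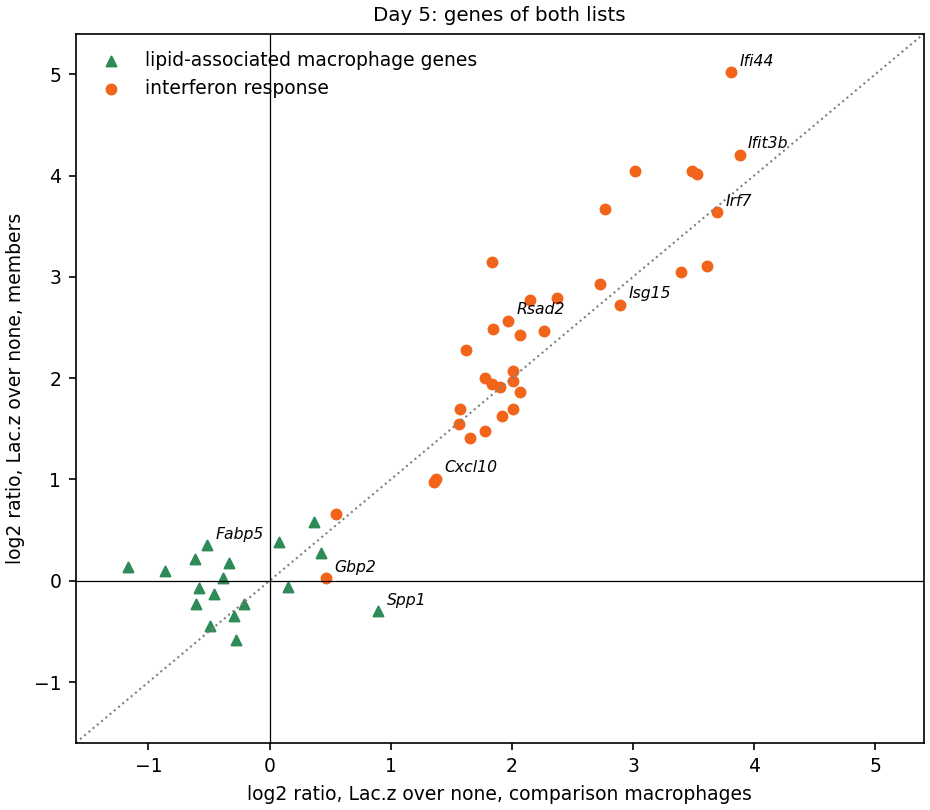
Log2 ratio of Lac.z over no Lac.z at day 5 in comparison macrophages (x axis) and in members (y axis), for the interferon genes (circles) and the lipid-associated genes (triangles). The interferon genes have medians of 2.01 and 2.42 and the lipid-associated genes of -0.34 and -0.02; both axes use the same pair of libraries.

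The 27 members of day 14 and 3 of day 28 were too few for a gene comparison, which needed 50 cells, and are given as sums. The day 14 members held 479130 UMIs in all. Their Fabp5 level was 614 CPM (545 to 688) against 64.7 in day 14 comparison cells, Trem2 563.5 against 279.6, Spp1 1519 against 851 and Fn1 1173 (1078 to 1274) against 64.4. These 4 genes were thus above comparison cells at day 14 too. Mmp12, a macrophage elastase, was at 1730.2 CPM (1614 to 1852) against 101 in day 14 comparison cells and 259 in day 5 members. The summed class II level was 41632 CPM in day 14 members and 56431 in comparison cells, against 5122 and 27486 at day 5. For the lipid-associated list the sums were 11779.7 against 3291 CPM at day 14 and 15715 against 3854 at day 5. A single cell gave 14.0% of the lipid-associated and 11.7% of the class II UMIs of day 14 members. At day 28 the members held an Arg1 UMI in 3 of 3 cells, 33 UMIs in all, and no Gpnmb UMI was found in 558 eligible macrophages. Taking 3 cells as the limit of a count of 0, up to 0.538% of such cells could hold a Gpnmb UMI; this sets no limit on cells that express the gene, at a median of 5559 UMIs per cell.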

How the data were processed

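Each library's matrix of counts, deposited by the authors as whole-number UMI counts of 31053 genes per barcode, was used as it stands; the matrix headers name software version 3.0.2 or 3.1.0, and the build is mm10, per the submitters' processing notes. No aligner and no annotation is named there. The limits on barcodes were 200 genes or more and no more than 50% mitochondrial UMIs. Doublets were not removed, except in an alternative with Scrublet at 0.8% per 1000 deposited barcodes.

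UMIs were summed over the cells of a set and divided by the set's total (per 1000000). Genes needed 50 UMIs or more over both sums to count as measured and were called at 1.5-fold, on log2 ratios with 1 UMI added to each sum; ratios have exact conditional binomial 95% intervals and shares Clopper-Pearson intervals. Arg1-only members had at least 3 Arg1 and 0 Gpnmb UMIs, and Gpnmb-only members the reverse. Genes were named by rank: 15 highest and 10 lowest of members over comparison cells by the smaller ratio of both day 5 libraries, 10 each way in the other contrasts, the extremes of each of 22 lists plus up to 2 called genes, and the given markers. Further genes mentioned (Tfec, Tfeb, Tfe3, Nos2, Cd80, Hilpda, Trac, Cd2, Lck and day 14 genes) were chosen after their values were seen, as were further list members. Members and lists were chosen with earlier results of these data known.

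Python 3.11.15, numpy 2.4.6, scipy 1.17.1, pandas 2.3.3, scanpy 1.11.5 and matplotlib 3.10.9 were used.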

Additional observations from a re-analysis of the deposited data

Results flagged for a closer look

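Results in this section differ in direction between the day 5 libraries, or lie outside the member rule. None of the differences was tested.

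S100a9, a calgranulin of neutrophils and monocytes, had a log2 ratio of members over comparison macrophages of -0.62 at day 5 and 2.95 with Lac.z; 89.1% of the Lac.z members' UMIs lay in 1 cell. Umod, a gene of the thick ascending limb, had 0.59 and -2.64, with 61.5% of the day 5 members' UMIs in 1 cell. Cyp2d12 had -3.89 and 2.11, with 87.0% of the Lac.z members' UMIs in 1 cell. Keg1 had a log2 ratio of Arg1-only over Gpnmb-only members of 2.04 at day 5 and -0.74 with Lac.z, with 36.4% of the day 5 Arg1-only UMIs in 1 cell.

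Barcodes with at least 3 Arg1 and Gpnmb UMIs but under 5 C1q UMIs, which the rule leaves out, numbered 44 (IR_d5), 17 (IR_Lac.z_d5), 5 (IR_d14) and 4 (IR_d28). Of these, 42, 13, 3 and 1 held at least 5 UMIs of the macrophage markers, and 24, 10, 2 and 1 at least 5 of the monocyte markers.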

How the results depend on the processing

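Member shares kept their direction and their side of 1.5-fold under every alternative run, and so did each named gene that could be measured except Igkc with Lac.z, at -0.52 with at least 20 C1q UMIs. Of the counts and share ratios, 131 values stayed (a count within 1.5 times, a ratio of shares on its side of 1.5-fold) and 21 moved. Ratios of shares of kept barcodes stayed by this measure but moved most without cells holding 10 tubule UMIs, to 0.661, 0.0513 and 0.00805. With at least 200 UMIs per gene, 830 genes were lower in members at day 5, 448 higher and 844 lower with Lac.z, 267 higher and 65 lower in Lac.z members over none, 332 higher and 225 lower in Arg1-only over Gpnmb-only at day 5, and 189 and 108 with Lac.z. With no filter the pairs were 2029 and 4345, 2135 and 3721, 3313 and 905, 2126 and 2675, and 2924 and 2137. With cells thinned to 5000 UMIs, 1058 and 1140 genes were lower in members. Of the list medians, 1127 stayed on their side, 34 passed 1.5-fold, 47 no longer passed it, and alternative activation in Arg1-only over Gpnmb-only members with Lac.z turned from 1.13 to -0.035 at 200 UMIs or more; the cause was not tested. Leaving out each gene's top cell was chosen after seeing the data, and 18 named values could then not be measured. Alternatives for gene ratios at days 14 and 28 were not run, with 27 and 3 members. No paired analysis was possible because the labels carry no replicate numbers and each group is 1 library.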
